A study of Mus musculus with 6 samples.

Results

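The 9 genes described here carry the adrenergic signal into the heart muscle cell and turn it into cyclic AMP (cAMP) signalling: the adrenergic receptors Adrb1, Adra1a and Adra1b, the adenylyl cyclases Adcy5 and Adcy6, the phosphodiesterases Pde3a, Pde4b and Pde4d, and the protein kinase A subunit Prkar1a. They were chosen by symbol from a table of 55487 genes, and all 9 were found in it. The libraries came from ventricular cardiomyocytes of wild-type neonatal mice, isolated on postnatal day 1 or 2, depleted of fibroblasts with CD90 antibodies and plated on fibronectin at 70000 cells per well in medium with serum. After 12 h the cells received, for 48 h, cyclopamine at 5 µg/ml, which blocks the Hedgehog receptor component Smoothened, GANT61 at 3 µM, which blocks the GLI transcription factors further down the same pathway, or DMSO, labelled as the control. The study concerns GLI signalling in cardiomyocytes after birth. By the labels there are 6 samples, 2 in each group, whereas the table of counts has a single column for each. Whether a column is 1 replicate or a pool is not stated.

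With 1 column per group, no difference between a pair of groups has a replicate check, and no test was possible for it. Intervals on single genes cover counting error only, and PCR duplicates could not be told from separate molecules. The columns held 38966515 counts for cyclopamine, 35461530 for GANT61 and 36661845 for DMSO, and 15576 genes passed the expression filter. All 13 cardiomyocyte markers had counts in every library and summed to 67456 CPM (counts scaled to a library of 1000000) in cyclopamine, 59734 in GANT61 and 70303 in DMSO, so the label of the cells had its defining markers. Fibroblast markers summed to 1094, 972 and 1431 CPM in cyclopamine, GANT61 and DMSO. In the same order, smooth muscle and pericyte markers summed to 1686, 1596 and 2647 CPM and endothelial markers to 165, 141 and 172 CPM. Other cells were thus present beside cardiomyocytes, and in RNA from a mixed culture fewer cells of a type and less RNA per cell cannot be told apart.

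Noradrenaline and adrenaline act on the heart mainly through the beta1 receptor encoded by Adrb1, which couples through the stimulatory G protein Gs to adenylyl cyclase. The cAMP formed releases the catalytic subunits of protein kinase A (PKA) from the regulatory subunits, and the kinase then phosphorylates calcium channels, phospholamban and sarcomere proteins, which speeds and strengthens the beat. Phosphodiesterases break cAMP down and confine it to small regions of the cell. The alpha1 receptors instead couple through Gq to phospholipase C and are known in neonatal cardiomyocytes for promoting growth.

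RefSeq promoter windows, from 250 bases before to 50 bases after an annotated start, were found for 6 of the 9 genes on the GRCm38.p6 build. Those of Adcy5 and Pde4d are shown because these genes were lower under both inhibitors. A window of Prkar1a is shown because, of these 6 genes, it alone had a palindromic cAMP response element. Prkar1a also had the most windows of the 6, and members without a window were not searched. The Adcy5 window lies at chr16:35154614-35154913, the Pde4d window at chr13:108653927-108654226 and the Prkar1a window at chr11:109650699-109650998, all on the plus strand. Capitals mark the cAMP response element TGACGTCA and its shorter core TGACG, searched on both strands.
Adcy5: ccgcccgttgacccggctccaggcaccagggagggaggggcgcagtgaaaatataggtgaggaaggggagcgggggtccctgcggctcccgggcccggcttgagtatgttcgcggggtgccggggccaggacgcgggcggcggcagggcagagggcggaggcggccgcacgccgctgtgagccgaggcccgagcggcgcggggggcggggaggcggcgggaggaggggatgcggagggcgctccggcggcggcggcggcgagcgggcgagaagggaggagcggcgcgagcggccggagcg
Pde4d: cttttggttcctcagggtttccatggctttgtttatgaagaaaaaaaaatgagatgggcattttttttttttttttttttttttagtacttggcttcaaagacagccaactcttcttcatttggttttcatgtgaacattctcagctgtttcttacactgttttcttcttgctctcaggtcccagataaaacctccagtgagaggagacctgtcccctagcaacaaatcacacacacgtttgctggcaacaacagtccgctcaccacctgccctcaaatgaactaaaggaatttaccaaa
Prkar1a: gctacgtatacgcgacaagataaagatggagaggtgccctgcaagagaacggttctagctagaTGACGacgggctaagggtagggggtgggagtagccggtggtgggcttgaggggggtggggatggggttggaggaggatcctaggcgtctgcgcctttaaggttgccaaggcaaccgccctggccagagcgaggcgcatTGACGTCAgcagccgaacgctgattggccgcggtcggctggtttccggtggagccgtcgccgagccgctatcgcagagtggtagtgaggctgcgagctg

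The consensus letters bound by GLI factors, TGGGTGGTC, were searched on both strands and occurred in 0.253% of 32851 promoter windows of this length and in none of the windows of the 6 genes. TGACGTCA occurred in 1.79% of windows. Among the 6 genes it was found only in the window of Prkar1a shown above and in a neighbouring one, chr11:109650612-109650911, which overlaps it and holds the same site. The core TGACG occurred in 20.8% of windows, and every full element also contains it once on each strand. Apart from the full element, the Prkar1a window shown had 1 further core, and 1 core each was found in the window of Adrb1, in that of 1 of 4 Pde4b starts and in another Prkar1a window, chr11:109649113-109649412. The Adcy5 and Pde4d windows had none. The window of Pde4d covers a single start of a gene with many, and a match or its absence describes letters only.

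Of the receptors, Adrb1 was the most abundant in every library and Adra1a was close to absent. Levels of different genes are given here as CPM per kilobase of merged exons, since a longer transcript yields more reads. Adrb1 (chr19:56722199-56733113, GRCm38) was at 10.96 CPM per kb in cyclopamine, 8.77 in GANT61 and 12.1 in DMSO, and Adra1b, the alpha1B receptor (chr11:43774606-43901210), at 3.87, 2.30 and 3.38. Adra1a, the alpha1A receptor (chr14:66635251-66771168), had 0 counts in cyclopamine, 0 in GANT61 and 4 in DMSO. It was therefore near the limit of detection in all 3 libraries. Among all adrenoceptors listed, Adrb1 made up 60.8% of the summed CPM per kb in cyclopamine, 60.3% in GANT61 and 68.6% in DMSO.

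Prkar1a, the type I regulatory subunit alpha that holds the PKA catalytic subunit inactive (chr11:109649405-109669656), was the most abundant member, at 371 CPM per kb in cyclopamine, 313 in GANT61 and 298 in DMSO. It made up 91.9%, 89.2% and 90.6% of the PKA regulatory subunits in these libraries. Adcy6 (chr15:98589973-98610076) followed with 37.3, 32.1 and 39.7 CPM per kb in cyclopamine, GANT61 and DMSO, and Adcy5 (chr16:35154877-35305738) with 20.9, 13.7 and 32.5. Both are calcium-inhibited cyclases and the main forms of heart muscle. The remaining cyclases were at most 7.16 CPM per kb, for Adcy7 in DMSO.

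Of the phosphodiesterases, Pde4b (chr4:102087543-102607259) had the highest level per merged exon length, at 9.57 CPM per kb in cyclopamine, 9.96 in GANT61 and 8.74 in DMSO. Pde3a (chr6:141249269-141507448), the cGMP-inhibited form, had 3.17, 2.17 and 3.37, and Pde4d (chr13:108449948-109953461) 1.32, 1.08 and 1.995. The order of the 9 genes was the same in cyclopamine and DMSO: Prkar1a, Adcy6, Adcy5, Adrb1, Pde4b, Adra1b, Pde3a, Pde4d, Adra1a. In GANT61, Pde4b stood above Adrb1. The intervals of Adra1b and Pde3a overlapped in GANT61 and in DMSO, so their order was not resolved there.

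The order also rests on the length used, because Pde4b and Pde4d have many alternative first exons. Per length of the longest transcript, Pde4b was at 23.5 CPM per kb in cyclopamine, 24.4 in GANT61 and 21.5 in DMSO, which placed it above Adcy5 in both inhibitor libraries. Pde4d on that scale was at 3.78, 3.09 and 5.69 CPM per kb and stood above Pde3a in all 3 libraries. Comparisons of one gene between libraries are not touched by this choice.

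**Figure D1:**
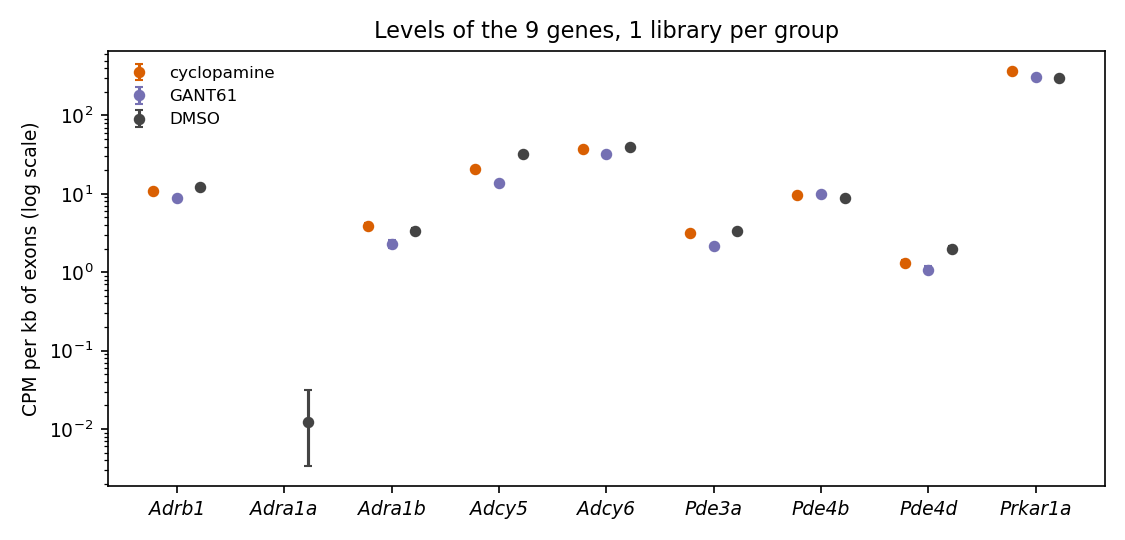
CPM per kilobase of merged exons (log axis) of the 9 genes in the cyclopamine, GANT61 and DMSO libraries, 1 point per library, with exact Poisson 95% intervals of the count. Libraries with 0 counts of Adra1a are not drawn. Prkar1a stands above all others at 298 to 371, and Adcy5 shows the widest spacing of the 2 cyclases, 13.7 to 32.5.

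Under both inhibitors the clearest difference among the 9 genes was a lower level of Adcy5 and Pde4d, with Pde3a lower under GANT61, while Adcy6, Pde4b and Prkar1a stayed within 1.5-fold of DMSO. A gene was called lower or higher by size where the ratio of the 2 libraries was 1.5-fold or more and the 95% interval from counting error did not reach a ratio of 1, which is a rule of size and not a test of the treatment. Of the 9 genes, 8 passed the expression filter. In cyclopamine against DMSO, 2 of these 8 were called lower, against 7.27% of all genes past the filter, and 0 were called higher, against 4.1%. In GANT61 against DMSO, 3 were called lower, against 13.3% of all genes, and 0 higher, against 8.4%. The median log2 fold change of the 8 genes was -0.09 in cyclopamine and -0.51 in GANT61, beside medians of -0.0040 and -0.0068 over all 15576 genes. Both comparisons share the DMSO library, and 753 of the 15576 genes (4.83%) were called lower in both.

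Adcy5 had 5756 counts in cyclopamine and 3523 in GANT61, against 8592 in DMSO. Both inhibitor libraries lay below DMSO, and GANT61 was the lowest. The log2 fold change was -0.64 (95% counting interval -0.69 to -0.59) in cyclopamine, a 1.56-fold lower level, and -1.25 (-1.30 to -1.19) in GANT61, a 2.37-fold lower level. Of the 15576 genes, 9.09% had an equal or lower fold change in cyclopamine and 5.99% in GANT61.

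Adcy6, the paralog of Adcy5, had 9724 counts in cyclopamine and 7797 in GANT61, against 9917 in DMSO. Its log2 fold change was -0.09 (-0.13 to -0.05) in cyclopamine and -0.31 (-0.35 to -0.26) in GANT61. Within each library, Adcy5 therefore gave 37.2% of the counts of the pair in cyclopamine (exact Clopper-Pearson 95% interval 36.4 to 38.0) and 31.1% in GANT61 (30.3 to 32.0), against 46.4% in DMSO (45.7 to 47.1). The 3 intervals did not overlap. As a ratio within a library this share does not depend on library scaling, and it shows unequal change of the pair, not which of them changed.

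Pde4d encodes a cAMP phosphodiesterase found in complexes with beta receptors and calcium release channels. It had 611 counts in cyclopamine and 466 in GANT61, against 882 in DMSO, so both inhibitor libraries were below DMSO. The log2 fold change was -0.59 (-0.74 to -0.44) in cyclopamine and -0.88 (-1.05 to -0.72) in GANT61, levels 1.51-fold and 1.84-fold lower. The cyclopamine value lay just inside the 1.5-fold limit and was no longer called with DESeq2 size factors, at -0.58.

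Pde4b, the paralog of Pde4d, had 3883 counts in cyclopamine and 3767 in GANT61, against 3400 in DMSO, and was slightly higher in both. Its log2 fold change was 0.13 (0.06 to 0.20) in cyclopamine and 0.19 (0.12 to 0.26) in GANT61. Pde4d gave 13.6% of the counts of the pair in cyclopamine (12.6 to 14.6) and 11.01% in GANT61 (10.1 to 12.0), against 20.6% in DMSO (19.4 to 21.8).

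**Figure D2:**
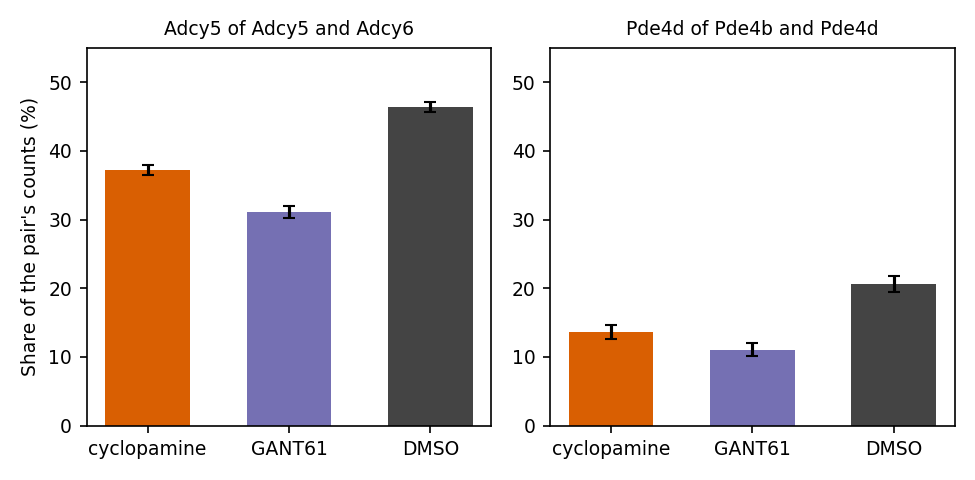
Share of the counts (%) that Adcy5 gave of Adcy5 and Adcy6 (left) and that Pde4d gave of Pde4b and Pde4d (right) in the cyclopamine, GANT61 and DMSO libraries, with exact Clopper-Pearson 95% intervals that cover counting error only. Both shares were lowest in GANT61 (31.1% and 11.01%) and highest in DMSO (46.4% and 20.6%).

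Pde3a, the target of the heart failure drug milrinone, had 1552 counts in cyclopamine and 988 in GANT61, against 1582 in DMSO. GANT61 alone stood apart. The log2 fold change was -0.09 (-0.19 to 0.01) in cyclopamine, where the interval included no difference, and -0.64 (-0.75 to -0.52) in GANT61, a 1.56-fold lower level. Its exons overlap those of an antisense gene, Gm28523, over 5.82% of their bases. That gene had 17 counts in cyclopamine, 12 in GANT61 and 14 in DMSO. For Adcy6, 8.92% of exon bases overlap the antisense gene Gm29331, which had 0 counts in all 3 libraries. No other member had an exon overlap, and the strand setting of the counting is not given in the sources used here.

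Prkar1a had 61597 counts in cyclopamine and 48431 in GANT61, against 47363 in DMSO. The cyclopamine library was the highest, at a log2 fold change of 0.32 (0.30 to 0.34), a 1.25-fold higher level that stayed under the 1.5-fold limit. In GANT61 it was 0.07 (0.05 to 0.09).

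Among the receptors, Adrb1 had 1424 counts in cyclopamine and 1062 in GANT61, against 1502 in DMSO. Its log2 fold change was -0.14 (-0.24 to -0.03) in cyclopamine and -0.46 (-0.57 to -0.35) in GANT61, and neither was called. Adra1b had 503 counts in cyclopamine and 278 in GANT61, against 421 in DMSO, so DMSO lay between the inhibitors. Its log2 fold change was 0.19 (0.01 to 0.39) in cyclopamine and -0.56 (-0.78 to -0.34) in GANT61, the value just outside the 1.5-fold limit. The cyclopamine interval reached below 0 with libraries scaled by their totals, at 0.17 (-0.02 to 0.36). For Adra1a, 0 counts against 4 allowed a level in cyclopamine of up to 1.45 times that in DMSO, and in GANT61 of up to 1.57 times, so a difference was not detectable at this depth.

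**Figure D3:**
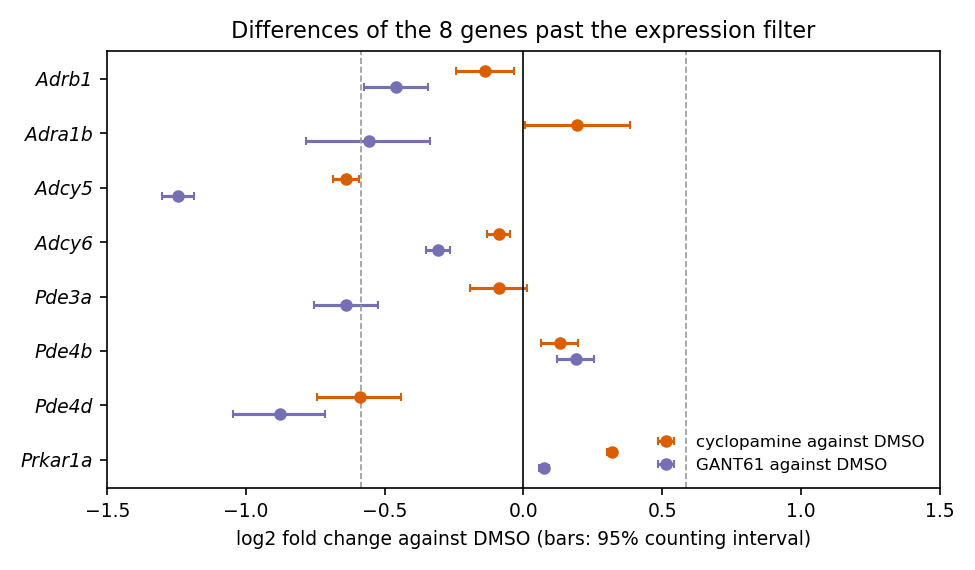
Log2 fold change against DMSO of the 8 genes past the expression filter, in cyclopamine and in GANT61, with exact 95% counting intervals. Dashed lines mark 1.5-fold. Adcy5 lies left of the lower line in both, at -0.64 and -1.25, Pde4d touches it in cyclopamine at -0.59, and Pde4b and Prkar1a lie right of 0.

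GANT61 and cyclopamine were compared directly as well, with doses in different units that cannot be matched. In GANT61 against cyclopamine, 2 of the 8 genes were called lower, against 8.83% of all genes, and 0 were called higher, against 6.16%. Adra1b was 1.68-fold lower in GANT61 than in cyclopamine, at a log2 fold change of -0.75 (-0.97 to -0.54). Adcy5 was 1.52-fold lower in GANT61, at -0.61 (-0.67 to -0.55), a call that was lost when libraries were scaled by their totals only, at -0.57. Pde3a was just outside the limit at -0.55 (-0.67 to -0.43), and Pde4b did not differ beyond counting error, at 0.06 (-0.01 to 0.12).

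When both inhibitor libraries were set as one arm against DMSO, the spread between them was the only measure of error, with 1 residual degree of freedom. That spread lies between different compounds and is not a spread between replicates. None of the 8 genes past the expression filter passed this test, and Adra1a was not tested. By edgeR's quasi-likelihood test with Benjamini-Hochberg adjustment over 15576 genes, 0 genes were lower and 0 were higher at an adjusted p under 0.05, that is 0% of all genes in each direction. At an unadjusted p under 0.05 there were 977 genes, 2 of them members. Adcy5 had a log2 fold change of -0.91 with an edgeR p of 0.00959 and an adjusted p of 0.516, and both libraries were below DMSO. Pde4d had -0.73 with an edgeR p of 0.0148 and an adjusted p of 0.593, also lower in both. The adjusted p ranged from 0.000493 to 0.772 for Adcy5 and from 0.142 to 0.792 for Pde4d over the alternative settings, and the low end for both came from testing without an expression filter. DESeq2's Wald test called 142 genes and limma-voom 0, and neither called a member. The other 6 tested members had edgeR adjusted p values from 0.896 to 0.975.

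The authors' deposited table of genes past a 1.2-fold limit lists 5 of the 9 genes as lower and 0 as higher. They are Adrb1, Adra1a, Adcy5, Pde3a and Pde4d, with the authors' mean of both inhibitor counts over the DMSO count at 0.828, 0, 0.540, 0.803 and 0.611 in that order. These ratios come from counts that were not scaled for library size. The authors' deposited table of lower genes holds 6461 genes and that of higher genes 6612, which are 28.8% and 29.5% of the 22450 genes with a count.

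Other levels moved between the libraries beside these genes. For comparison, 7.27% of all genes were called lower and 4.1% higher in cyclopamine, and 13.3% and 8.4% in GANT61. Of 8 smooth muscle and pericyte markers past the filter, 2 were called lower and 1 higher in cyclopamine, and 3 lower and 1 higher in GANT61. Acta2 and Cnn1 were lower in both, and the summed level of the list was lower in both inhibitor libraries, as given above. Of 10 fibroblast markers past the filter, 1 was lower and 1 higher in cyclopamine, and 3 were lower and 1 higher in GANT61. Of the 13 cardiomyocyte markers, 0 were called in cyclopamine and 2, Actn2 and Myl3, were called lower in GANT61, with a median log2 fold change over the list of 0.09 in cyclopamine and -0.12 in GANT61. Of the fibroblast list Fap was at 0 in GANT61, and of the smooth muscle and pericyte list Rgs5 was at 0 in cyclopamine. Macrophage and leukocyte markers summed to 15.8 CPM in cyclopamine and 8.49 in GANT61, against 10.5 in DMSO. Neural and Schwann markers summed to 35.3 CPM in cyclopamine and 18.9 in GANT61, against 36.8 in DMSO, and of 6 past the filter 1 was higher and 1 lower in cyclopamine, and 0 were higher and 3 lower in GANT61, namely S100b, Dbh and Tubb3. Of the 8 mesothelial markers, 3 in cyclopamine and 6 in GANT61 were called higher, their sum was 168 CPM in cyclopamine and 237 in GANT61, against 148 in DMSO, and none was at 0 in any library. The part of these markers in the lower Adcy5, Pde4d and Pde3a was not tested.

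The other receptors, cyclases and phosphodiesterases of the pathway were read from lists that, apart from the 9 genes, hold 167 genes of the table, 135 of them past the filter. Of these 135, 14 were called lower and 4 higher in cyclopamine, and 27 lower and 13 higher in GANT61. Their median log2 fold change was -0.04 in cyclopamine and -0.16 in GANT61. In shares, 10.4% were lower and 2.96% higher in cyclopamine, beside 7.27% and 4.1% of all genes, and 20.0% were lower and 9.63% higher in GANT61, beside 13.3% and 8.4%. By the edgeR test, 0 of the 135 had an adjusted p under 0.05 for both inhibitors against DMSO, as was so for all 15576 genes.

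Adra1d, the alpha1D receptor, had 206 counts in cyclopamine and 174 in GANT61, against 136 in DMSO, and was not called. Per kilobase it was the next most abundant alpha1 receptor after Adra1b in cyclopamine and DMSO, and stood at 2.56 CPM per kb beside 2.30 for Adra1b in GANT61.

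Of 12 receptor kinases, arrestins and RGS proteins past the filter, which end or limit receptor signalling, 1 was called lower in cyclopamine and 5 in GANT61, beside 7.27% and 13.3% of all genes, and 0 were higher in either. Rgs2, which speeds the shut-off of Gq, had 110 counts in cyclopamine and 37 in GANT61, against 266 in DMSO, with a log2 fold change of -1.32 (-1.67 to -1.01) in cyclopamine and -2.74 (-3.34 to -2.31) in GANT61. Arrb1, beta-arrestin 1, which uncouples phosphorylated receptors, had 979 counts in cyclopamine and 625 in GANT61, against 1399 in DMSO, at -0.58, just short of the limit, and -1.12. Rgs3 and Rgs6 were called lower in GANT61, at -0.74 and -0.71, and lay at -0.06 and 0.18 in cyclopamine. Both were also called lower in GANT61 against cyclopamine, at -0.68 and -0.89. Of 17 G protein subunits, 2 were lower in cyclopamine and 4 in GANT61. With 1 of 12 and 2 of 17, the cyclopamine counts of both lists were near the share of all genes. Gng11 was among them in both, at -0.67 and -0.72. Gipr, the receptor for the gut hormone GIP, had 35 counts in cyclopamine and 28 in GANT61, against 101 in DMSO. Chrm2, the muscarinic receptor that lowers cAMP through Gi, had 7920 counts in cyclopamine and 5345 in GANT61, against 8217 in DMSO, and was not called.

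Of 7 cyclases past the filter, members included, 2 were called lower in cyclopamine and 2 in GANT61, beside 7.27% and 13.3% of all genes. The member Adcy5 was among them in each. Adcy7 had 1040 counts in cyclopamine and 1153 in GANT61, against 1776 in DMSO, with log2 fold changes of -0.83 and -0.58. Adcy3 was called lower in GANT61, at -0.87, with 67 counts against 128 in DMSO. Summed over the cyclases, the level was 67.1 CPM per kb in cyclopamine and 54.4 in GANT61, against 84.2 in DMSO, and the share of Adcy6 in that sum was 55.6% in cyclopamine and 59.0% in GANT61, against 47.2% in DMSO.

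For the phosphodiesterases the summed level differed little, at 26.0 CPM per kb in cyclopamine and 25.5 in GANT61, against 26.3 in DMSO, while single forms differed. These sums use merged exon lengths. Pde1c, a calcium- and calmodulin-activated form, had 1471 counts in cyclopamine and 2077 in GANT61, against 603 in DMSO, and both inhibitor libraries lay above DMSO. Its log2 fold change was 1.22 (1.09 to 1.36) in cyclopamine and 1.82 (1.69 to 1.96) in GANT61, with an edgeR adjusted p of 0.198 for both inhibitors against DMSO. It gave 7.33% of the summed CPM per kb in cyclopamine and 11.3% in GANT61, against 3.10% in DMSO. Pde8a was called higher in GANT61, at 1.28, with 208 counts against 87 in DMSO. Pde4d gave 5.09% of the sum in cyclopamine and 4.25% in GANT61, against 7.58% in DMSO, and Pde3a 12.2% and 8.49%, against 12.8%.

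**Figure D4:**
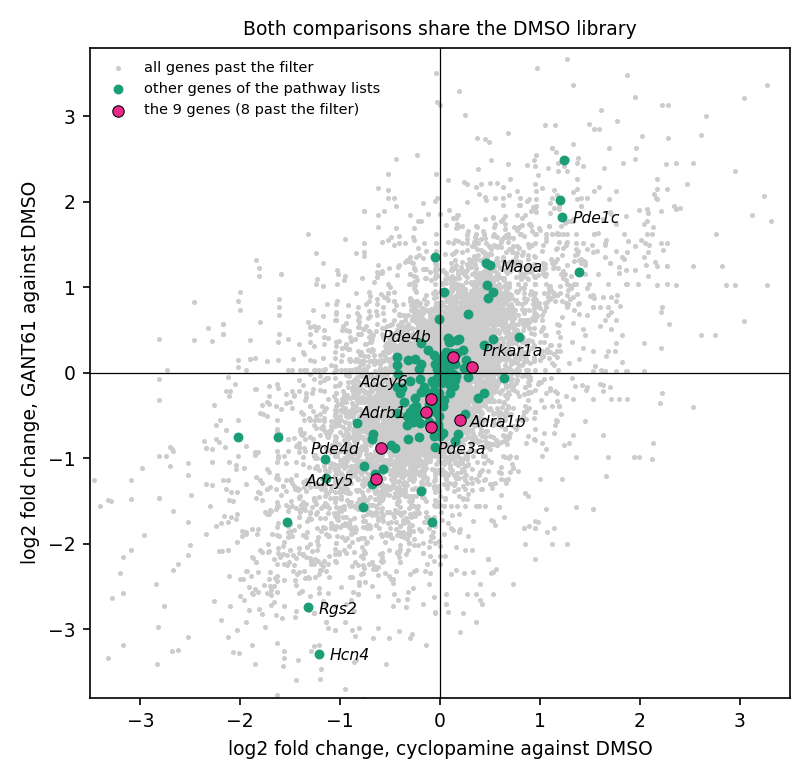
Log2 fold change in GANT61 against DMSO (vertical) and in cyclopamine against DMSO (horizontal) of all genes past the filter (grey), the other genes of the pathway lists (green) and the 9 genes (pink, 8 past the filter). Both axes share the DMSO library, which by itself spreads points along the diagonal, and 11 of 15576 genes lie outside the axes. Adcy5 and Pde4d lie at the lower left, Adra1b in the lower right, and Pde4b and Prkar1a in the upper right.

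Downstream of cAMP, PKA subunits and inhibitors were mostly within 1.5-fold. For comparison, 4.1% of all genes were called higher and 7.27% lower in cyclopamine, and 8.4% and 13.3% in GANT61. Of 9 past the filter, 1 was called higher in each inhibitor library, Pkib, with 39 counts in cyclopamine and 31 in GANT61, against 13 in DMSO. Pkig, another PKA inhibitor peptide, had 4460 counts in cyclopamine and 2490 in GANT61, against 4273 in DMSO, and was called lower in GANT61, at -0.74. Of 11 A-kinase anchoring proteins, 0 were called in cyclopamine, while in GANT61 Akap1, which anchors PKA at mitochondria, was called higher at 0.69 and Akap13 lower at -0.59, a call lost with DESeq2 size factors, at -0.58.

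Among the other cAMP effectors, the pacemaker channel gene Hcn4 had the lowest log2 fold change in GANT61, at -3.29. It had 283 counts in cyclopamine and 61 in GANT61, against 629 in DMSO. Rapgef4, the cAMP-activated exchange factor EPAC2, had 57 counts in cyclopamine and 34 in GANT61, against 89 in DMSO. Of 12 PKA substrates of the cardiomyocyte, 0 were called in cyclopamine and 2, Kcnq1 and Ppp1r1a, were called lower in GANT61. Of all genes, 7.27% were called lower and 4.1% higher in cyclopamine, and 13.3% and 8.4% in GANT61. Pln, which encodes phospholamban, had 76814 counts in cyclopamine and 44800 in GANT61, against 54278 in DMSO. It was not called against DMSO but was called lower in GANT61 against cyclopamine, at -0.68.

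Genes known to be induced by cAMP and CREB were called in both directions. Of 17 past the filter, 1 was higher and 3 lower in cyclopamine, and 6 were higher and 4 lower in GANT61. Of all genes, 4.1% were higher and 7.27% lower in cyclopamine, and 8.4% and 13.3% in GANT61. The 6 were Nr4a1, Nr4a3, Fos, Junb, Sik1 and Ppargc1a. The 3 lower in cyclopamine were Nr4a2, Rgs2 and the member Pde4d, and the 4 in GANT61 were these and the member Pde3a. Nr4a3, an orphan nuclear receptor, had 84 counts in cyclopamine and 140 in GANT61, against 34 in DMSO. Fos, an immediate early transcription factor, had 518 and 909, against 483, and was called higher in GANT61, at 0.95, with 0.04 in cyclopamine. Of the 9 CREB family genes, 0 were called in cyclopamine and 1, Creb3l2, was called lower in GANT61.

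On the alpha1 side, 4 of 15 effectors past the filter were called lower in cyclopamine and 4 in GANT61, with 0 higher. Of all genes, 7.27% were lower and 4.1% higher in cyclopamine, and 13.3% and 8.4% in GANT61. Plcb1, Plcb2 and Trpc6 were called lower in both. Plcb2, a phospholipase C, had 97 counts in cyclopamine and 51 in GANT61, against 160 in DMSO. Dgkz, a diacylglycerol kinase, had 1467 and 1068, against 1975. It was called lower in GANT61 only, at -0.85, with -0.49 in cyclopamine. Of 7 genes for catecholamine synthesis, uptake and breakdown, Maoa, which oxidises noradrenaline, was called higher in GANT61, with 847 counts in cyclopamine and 1331 in GANT61, against 572 in DMSO. The synthesis genes Ddc and Dbh were called lower in GANT61, at -0.70 and -0.80, and lay at 0.03 and 0.15 in cyclopamine. Dbh also belongs to the neural and Schwann marker list, whose sum was 18.9 CPM in GANT61, against 36.8 CPM in DMSO, and the part of those markers in the Dbh and Ddc differences was not tested.

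**Figure D5:**
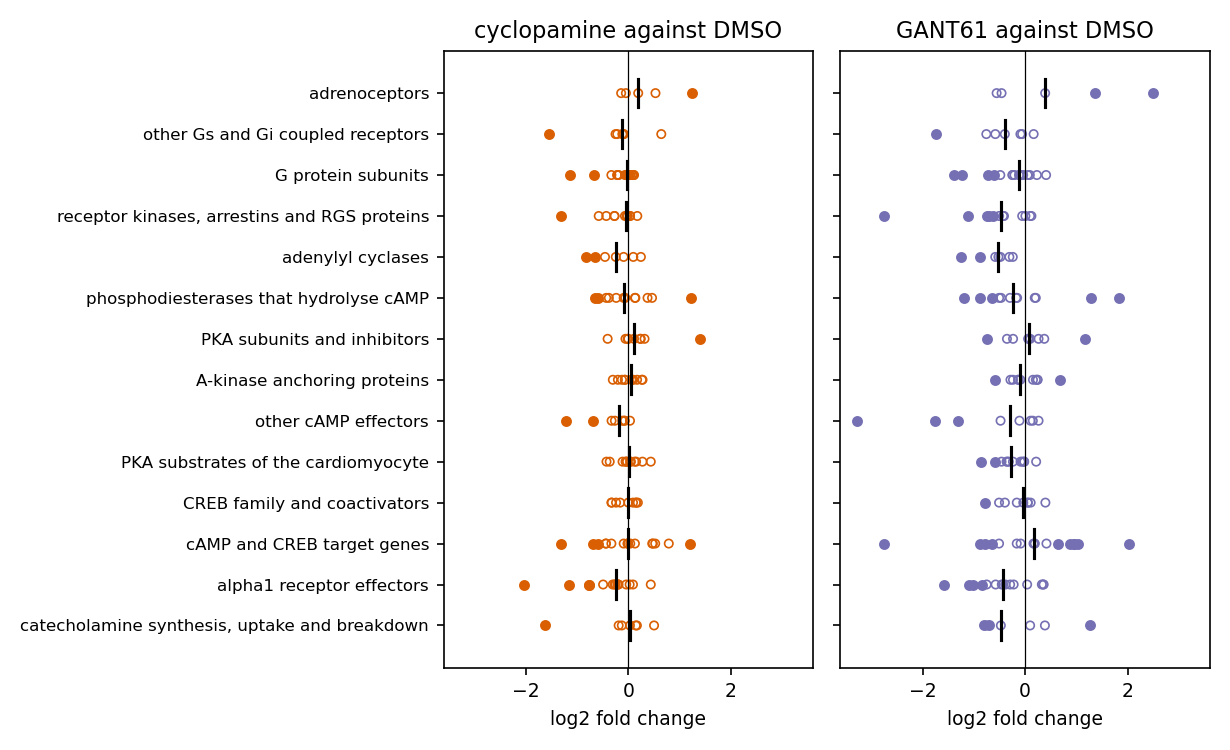
Log2 fold change against DMSO of the genes past the filter in each of 14 pathway lists, members of the 9 included, for cyclopamine (left) and GANT61 (right). Filled points were called by size, open points were not, and black bars are list medians. Most points lie within 1.5-fold in cyclopamine, and GANT61 shows more filled points on the lower side, with Hcn4 at -3.29 the lowest.

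The genes whose pair of fold changes lay nearest to that of Adcy5, of 9772 genes with a mean of at least 5 CPM, were Sertad4, Hdhd3, Mylk, Itgb3 and Prickle2, at Euclidean distances of 0.0262 to 0.0578 on the log2 scale. For Pde4d they were Exoc3l4, Dact3, Pold1, Aqp1 and Rnf145, at distances of 0.0186 to 0.0369. This likeness rests on 3 libraries and on the DMSO library that both fold changes share.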

How the data were processed

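The authors deposited whole-number read counts for each gene, without normalization, in 1 column per group, and these were analysed. The submitters' processing notes name HISAT2 2.1.0, featureCounts, Trimmomatic 0.33, FastQC and GRCm38 without their roles, and libraries were stranded per the labels' protocols. How featureCounts treated strand, and with which annotation, is not given in the sources used here. The authors' deposited lists also hold a mean signal, the mean of the raw counts of both inhibitor columns. Positions and exon lengths came from GENCODE mouse release 21.

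Genes were kept by filterByExpr and scaled by TMM (edgeR 4.0.16), and log2 fold changes used a prior count of 2. Intervals were exact at 95%: conditional binomial for ratios, Poisson for counts, Clopper-Pearson for shares. The size rule asked for 1.5-fold. Both inhibitors against DMSO were tested with edgeR's robust quasi-likelihood fit, with a common dispersion of 0.0355, and DESeq2 1.42.0 and limma 3.58.1 were alternatives. The size rule and the test were also run on simulated data with known folds, and the outcome is not reported here. A gene is described as lower or higher by its size in these libraries. The p-values set the difference from DMSO against only the spread between the inhibitor libraries. This spread can hold differences between the compounds, and the fit shared information on it between genes.

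The 9 genes and all lists were chosen with earlier results of these data known. Named genes were the 9, up to 4 per pathway list with the largest absolute log2 fold change and at least 30 counts in a library, marker lists, and the 5 genes nearest to each of the 2 members farthest from 0. Nr4a1, Nr4a2, Sik1, Ppargc1a and single markers were named after their values were seen, to spell out counts. A few named genes are left out here. Alternatives were other size factors, filters, folds, tests, lengths and prior counts.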

Additional observations from a re-analysis of the deposited data

Results flagged for a closer look

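Adra1b stood on opposite sides of DMSO under the 2 inhibitors, which is what singled it out: its counting intervals excluded no difference in each, above DMSO in cyclopamine and below it in GANT61. It had 278 counts in GANT61 and 503 in cyclopamine, beside 421 in DMSO, and its log2 fold change in GANT61 against cyclopamine was -0.75 (-0.97 to -0.54). The position above DMSO in cyclopamine, 0.19 (0.01 to 0.39), rests on the scaling: the interval included no difference with libraries scaled by their totals, at 0.17 (-0.02 to 0.36), and with a filter of 5 CPM in 2 libraries, at 0.18 (-0.01 to 0.37). The difference between the inhibitors was not tested across replicates, since each group has 1 library, and the doses cannot be matched.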

How the results depend on the processing

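No log2 fold change of the 9 genes called by size, and none of the 135 other list genes so called, changed sign under the pairwise alternatives. Among list genes not called, 4 in cyclopamine, 1 in GANT61 and 5 in GANT61 against cyclopamine had values near 0 that changed sign, Pkig in cyclopamine among them. Among named list genes at 1.5-fold, Akap13 in GANT61 lost its call with DESeq2 size factors (-0.58), library totals and no filter, and Kcnq1 in GANT61 lost it with no filter (-0.58). Arrb1 in cyclopamine gained a call with library totals (-0.60) and the 5 CPM filter, as did Adcy7 and Chrm2 in GANT61 with that filter (both -0.61). In GANT61 against cyclopamine, Rapgef4 lost its call with library totals (-0.58) and no filter, and Junb gained one with library totals (0.59). With 1 column per group and 1 residual degree of freedom in the test of both inhibitors, no replicate could be left out. No paired analysis was possible because the count columns carry no replicate numbers. DESeq2 size factors left 1 of the 9 genes lower in cyclopamine in place of 2, and scaling by library totals left 1 lower in GANT61 against cyclopamine in place of 2. At 1.2-fold, 1 of the 9 genes was higher in cyclopamine in place of 0, 6 were lower in GANT61 in place of 3, and 5 were lower in GANT61 against cyclopamine in place of 2. At 2-fold, 0 were lower in cyclopamine, 1 (Adcy5) in GANT61 and 0 in GANT61 against cyclopamine.

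Counts over all genes moved with the fold and the filter. In cyclopamine 638 genes were higher and 1133 lower, which became 184 and 263 with at least 5 CPM in 2 libraries, 1638 and 2193 at 1.2-fold, and 345 and 607 at 2-fold. In GANT61 1308 were higher and 2070 lower, which became 606 and 854, 3040 and 3576, and 629 and 1191 under the same settings. In GANT61 against cyclopamine 960 were higher and 1375 lower, which became 270 and 483, 2459 and 2750, and 465 and 676. The edgeR test of both inhibitors against DMSO called 0 genes. DESeq2 called 62 higher and 80 lower, scaling by library totals 9 and 9, and no filter 198 and 284, with 1 of the 9 genes, Adcy5, lower at an adjusted p of 0.000493. The cause was not tested. Levels per kilobase of Pde4b and Pde4d depended on the transcript length used. Depth limits Adra1a, which had few counts.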
